A study of Mus musculus with 8 samples.

Results

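The alpha, beta and gamma secretases are the proteases that cut the amyloid precursor protein, and their genes were followed here in the cortex of APP/PS1 mice given bexarotene. The 9 genes were chosen by name: Psen2, Ncstn, Aph1a, Aph1b and Psenen for the gamma secretase, Bace1 and Bace2 for the beta secretase and its relative, and Adam10 and Adam17 for the alpha secretases. All 9 were found among the 22869 gene symbols of the deposited count table, and all 9 passed the filter on low counts with 16069 genes in all. Each gene was represented by its transcript row with the highest mean count. None of the 9 differed between the groups past the threshold.

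All 8 libraries came from the cortex of mice of the strain C57BL/6 with the genotype APP/PS1, a transgenic background that forms amyloid plaques. The bexarotene group had 4 libraries, for which the labels state no dose, duration or age. The vehicle group also had 4 libraries, whose labelled agent was glycerol at 0.2 mg/kg. Both groups carried the transgenes, whose promoters the labels do not name, and no library from animals without them was analysed here. The labels do not say how many animals went into each library, and the p-values therefore speak only of the spread between libraries, which may be technical. Bexarotene is an agonist of retinoid X receptors, nuclear receptors that bind DNA mostly as partners of other nuclear receptors.

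Alpha secretases cut the amyloid precursor protein inside the amyloid beta sequence and so prevent the peptide from forming, whereas BACE1 makes the cut at its start. The gamma secretase then cuts the remaining stub within the membrane and releases the peptide. It is an assembly of presenilin, which holds the catalytic site, nicastrin, APH1 and PEN2, and it also processes Notch receptors and many other membrane proteins.

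Libraries held 42413825 to 76542067 counts summed over all transcript rows, where rows of the same gene can repeat the same counts. With 1 row per gene the totals were 29089954 to 52479182. The libraries lay in 2 sets along the first principal component, which held 36.5% of the variance: replicates 1 and 3 of both groups on one side and replicates 2 and 4 on the other. All 4 bexarotene libraries held both Xist and Y-linked transcripts, whereas each vehicle library held only one of them above 1 CPM (counts relative to the size of each library): Xist in replicates 1 and 3, Y-linked transcripts in replicates 2 and 4. In vehicle, the sets of replicates and the sex of the animals therefore cannot be told apart, which touches every value given within a set. The neuron, astrocyte, oligodendrocyte, microglia and endothelial marker lists were detected in all libraries under the cortex label. Markers of 2 other regions were also present: summed striatal markers stood at 1235 and 904 CPM in bexarotene replicates 1 and 3 against 212 to 646 CPM elsewhere, and summed choroid plexus markers at 74.8 to 1455 CPM under bexarotene against 15.8 to 41.3 CPM under vehicle. All 12 microglial markers had a positive log2 fold change, with summed levels of 810 to 1069 CPM under bexarotene and 595 to 768 CPM under vehicle. Positive values were not particular to microglia. They were found for 8 of 8 oligodendrocyte, 7 of 7 endothelial, 7 of 8 astrocyte and 2 of 10 neuron markers, beside 50.2% of all genes tested. In each of these lists 0 markers passed the threshold. The part of these differences in the values below was not tested. Values within a set of replicates do not test it, because the microglial and choroid plexus sums were higher under bexarotene in both sets. In tissue of mixed cells, fewer cells of a type and less RNA per cell cannot be told apart.

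Read assignment may be less certain for some members, and the Aph1b gene is one case. Mice have a close copy of it, Aph1c, also on chromosome 9, and both have rows in the table. Over 774 aligned coding positions the pair was identical at 95.9%, with an uninterrupted identical run of 341 nt, so reads within that run cannot be assigned to one of them by sequence. The coding sequences are 771 nt of the 4910 nt transcript of Aph1b and 774 nt of the 5205 nt transcript of Aph1c. The rest of these transcripts was not compared. The first 120 coding bases of each, from the start codon of the GENCODE M21 transcripts matched to the RefSeq rows, are shown because they hold 14 of the differences by which reads can be assigned. Capitals mark the positions at which the 2 genes differ.
Aph1b: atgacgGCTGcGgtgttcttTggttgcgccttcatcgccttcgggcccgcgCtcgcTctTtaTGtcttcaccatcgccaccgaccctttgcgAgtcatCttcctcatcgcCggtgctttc
Aph1c: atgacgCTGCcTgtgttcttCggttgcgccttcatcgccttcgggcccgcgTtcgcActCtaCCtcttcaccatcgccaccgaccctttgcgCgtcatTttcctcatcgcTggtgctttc

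Several members share exon sequence with a gene on the opposite strand in the GENCODE models, and whether strand was used in counting is not given. The overlap was 15.4% of the exonic bases of Bace1 (with Rnf214), 12.9% of Aph1a (with Car14), 9.33% of Psenen (with U2af1l4), 4.91% of Ncstn (with Copa) and 4.35% of Adam17 (with Iah1). U2af1l4, a splicing factor gene at 17.9 to 25.8 CPM, was more abundant than Psenen in every library. Psen2, Aph1b, Bace2 and Adam10 had no such exonic overlap.

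Compared per kilobase of transcript, the 9 genes spanned a wide range of levels. Ncstn had the highest mean over the 8 libraries, 17.6 ± 0.944 CPM per kb (SD, n = 8), followed by Adam10 at 14.2 ± 2.25 and Bace1 at 13.7 ± 1.08 CPM per kb. The ranges of these neighbours overlapped: 16.4 to 19.2 CPM per kb for Ncstn, 11.4 to 18.3 for Adam10 and 12.5 to 15.5 for Bace1. Psen2 stood apart below them, at 6.53 ± 0.796 CPM per kb with a range of 5.34 to 8.03. Aph1b (4.31 ± 0.606), Psenen (2.92 ± 0.664), Aph1a (2.79 ± 0.326) and Adam17 (2.62 ± 0.271 CPM per kb) formed an overlapping run beneath it, and the range of Aph1b, 3.56 to 5.40, touched that of Psen2. Bace2 was the lowest at 0.330 ± 0.0898 CPM per kb, and no library of it reached the range of any other member. Aph1c stood at 1.25 ± 0.236 CPM per kb, between Adam17 and Bace2.

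**Figure D1:**
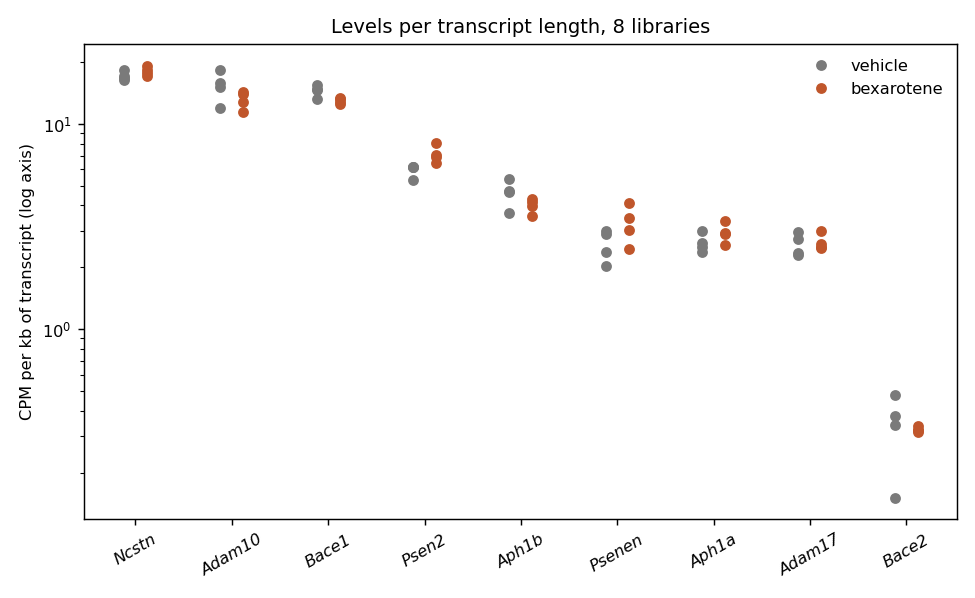
Level of each secretase gene in CPM per kb of transcript (log axis) in the 4 vehicle (grey) and 4 bexarotene (orange) libraries, ordered by the mean over all 8. Ncstn, Adam10 and Bace1 lie between 11.4 and 19.2 CPM per kb and Bace2 at or below 0.478.

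Among the 9 members, 5 had a positive and 4 a negative log2 fold change (bexarotene minus vehicle), with a median of 0.03, beside 50.2% positive and a median of 0.00092 over all genes tested. In edgeR's quasi-likelihood test 0 of 9 passed an adjusted p of 0.05, the background being 0.00622% of the 16069 genes, and 0 of 9 passed in DESeq2 or edgeR's exact test, whose backgrounds were 0.647% and 0.230%. At an unadjusted p under 0.05 there were 2 of 9, beside 8.77% of all genes: Psen2, higher (background 4.88%), and Bace1, lower (background 3.89%). Libraries of the groups did not overlap for 1 of 9, beside 5.77% of all genes. That member was Psen2, which was higher (background 3.61%), and 0 were lower without overlap (background 2.16%). Adjusted p-values of the 9 ran from 0.562 to 0.985.

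Of the 5 gamma secretase genes, Aph1b had a negative log2 fold change and the others positive ones, and none passed the test. Psen2 encodes presenilin 2, a catalytic subunit found largely in late endosomes and lysosomes. Its levels under bexarotene were 14.1, 16.03, 13.7 and 12.9 CPM in replicates 1 to 4. Under vehicle they were 12.3, 12.4, 10.7 and 12.3 CPM. The lowest bexarotene library, replicate 4, still exceeded the highest vehicle library by a small margin, so the groups did not overlap. Mean levels were 14.2 ± 1.32 CPM with bexarotene and 11.9 ± 0.820 CPM with vehicle (SD, n = 4). On the log2 scale the fitted difference was 0.25 ± 0.11 (SE; adjusted p = 0.562, edgeR quasi-likelihood). Permuting the 8 libraries exactly gave a two-sided p of 0.0286, which is as low as 4 against 4 can reach. The unadjusted 95% interval ran from a 1.01-fold to a 1.40-fold higher level. Replicates 1 and 3 alone differed by 0.28 on the log2 scale, and replicates 2 and 4 alone by 0.22. The summed microglial and choroid plexus markers also did not overlap between the groups, and their part in the Psen2 values was not tested.

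Both RefSeq rows of Psen2 held the same counts in 7 libraries and 969 against 967 in bexarotene replicate 4, so the choice of row did not matter for it. By the root mean square difference of centred log2 CPM over the 8 libraries, the genes with the pattern closest to that of Psen2 among 13974 candidates were Mpdu1 (0.0539), Ndufs4 (0.0681) and Mtif3 (0.0693). Mpdu1 is known for its part in dolichol-linked sugar use, Ndufs4 encodes a subunit of respiratory complex I and Mtif3 a mitochondrial translation initiation factor. Their log2 fold changes were 0.24, 0.25 and 0.17, none of them past the threshold. Values near that of Psen2 follow from picking the genes by their pattern in the same libraries. A shared function was not tested.

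Ncstn encodes nicastrin, the large glycoprotein of the complex that takes part in substrate recognition. Bexarotene replicates 1 to 4 had 51.1, 52.7, 49.8 and 55.7 CPM. Vehicle replicates 1 to 4 had 48.3, 49.5, 52.9 and 47.4 CPM. The groups overlapped, with vehicle replicate 3 above 3 of the bexarotene libraries. Its log2 fold change of 0.08 ± 0.07 (SE) had an adjusted p of 0.810, and the unadjusted 95% interval allowed a ratio of 0.945 to 1.18. Replicates 1 and 3 alone gave -0.0035 and replicates 2 and 4 alone 0.16.

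The APH1 scaffold, which helps assemble the complex, is encoded by Aph1a and by Aph1b. Aph1a was at 9.64, 8.44, 7.37 and 8.35 CPM in bexarotene replicates 1 to 4 and at 7.55, 8.56, 7.15 and 6.78 CPM in vehicle replicates 1 to 4. Bexarotene replicate 1 was the one library above all vehicle libraries. The fitted log2 difference of 0.17 ± 0.13 (SE) carried an adjusted p of 0.769. A second, shorter Aph1a transcript row held 246 to 307 counts under bexarotene and 194 to 226 under vehicle, with a log2 fold change of 0.02 ± 0.17. Counts of this row per count of the first were 0.477 ± 0.0663 under bexarotene and 0.529 ± 0.0662 under vehicle (SD, n = 4), a difference within the spread (exact two-sided permutation p = 0.314, 0.629 adjusted over 6 ratios). Car14, the carbonic anhydrase gene that overlaps Aph1a, had a log2 fold change of 0.54 ± 0.24, and its part in the Aph1a counts was not tested.

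Aph1b went the other way in its estimate. Bexarotene replicates 1 to 4 stood at 17.5, 21.1, 19.5 and 20.4 CPM. Vehicle replicates 1 to 4 stood at 26.5, 18.1, 23.2 and 22.9 CPM. All but 1 of the vehicle libraries exceeded every bexarotene library, but vehicle replicate 2 fell below 3 of the bexarotene libraries. Fitted over all 8, its log2 fold change was -0.21 ± 0.12 (SE; adjusted p = 0.695). Replicates 1 and 3 alone gave -0.42, but replicates 2 and 4 alone gave 0.03, so the sign depended on the set. An interaction term for the 2 sets had an unadjusted p of 0.0542 and, adjusted, 0.376 (edgeR).

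Aph1c, the close copy of Aph1b, had 4.71, 7.28, 5.33 and 5.92 CPM in bexarotene replicates 1 to 4. The vehicle libraries had 7.55, 8.22, 5.74 and 7.14 CPM, and the groups overlapped. Its log2 fold change was -0.30 ± 0.17, adjusted p 0.679. The ratio of Aph1b to Aph1c per kb was 3.64 ± 0.394 under bexarotene and 3.43 ± 0.821 under vehicle (SD, n = 4), with an exact permutation p of 0.714 before and after adjustment over the 6 ratios. The ratio of Aph1a to Aph1b per kb was 0.745 ± 0.136 and 0.585 ± 0.153, also within the spread (exact permutation p = 0.114, adjusted 0.60).

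Psenen encodes PEN2, the smallest subunit, which is needed for presenilin to be cut into its active form. It had 2.92, 1.75, 2.45 and 2.15 CPM in bexarotene replicates 1 to 4. The vehicle libraries had 1.43, 1.67, 2.06 and 2.13 CPM. Bexarotene replicates 1 and 3 were the highest of all 8, replicate 4 barely exceeded the vehicle range and replicate 2 lay within it. These values rest on 61 to 183 counts per library. At the mean bexarotene count, counting alone gives a coefficient of variation of 7.89%, and the observed one was 21.4%. The log2 fold change of 0.34 ± 0.25 (SE) had the highest value of the 9 members, yet an adjusted p of 0.752, and its unadjusted interval ran from 0.869-fold to 1.85-fold. It came to 0.63 in replicates 1 and 3 alone and to 0.04 in replicates 2 and 4 alone. U2af1l4, which overlaps Psenen on the opposite strand, had a log2 fold change of 0.19 ± 0.10. For U2af1l4 the same sets gave 0.35 and 0.05, and its part in the Psenen counts was not tested.

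The beta secretase gene Bace1 had a lower mean under bexarotene. Its levels were 75.5, 79.7, 77.1 and 80.5 CPM in bexarotene replicates 1 to 4. Vehicle replicates 1 to 4 had 93.8, 80.3, 88.1 and 89.4 CPM. All but 1 of the bexarotene libraries lay below every vehicle library, and bexarotene replicate 4 passed vehicle replicate 2 by a narrow margin. Between libraries with the same number, the bexarotene one was lower in 4 of 4, though only narrowly in replicate 2. Equal numbers were not established as pairs, and the share of all genes with this pattern was not counted. Mean levels were 78.2 ± 2.32 CPM with bexarotene and 87.9 ± 5.63 CPM with vehicle (SD, n = 4). The log2 difference was -0.17 ± 0.07 (SE; edgeR unadjusted p = 0.0444, adjusted 0.571; exact permutation p = 0.0571). The fitted ratio was 0.890, with an unadjusted 95% interval of 0.795 to 0.996. Replicates 1 and 3 alone gave -0.25 and replicates 2 and 4 alone -0.08.

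A second Bace1 transcript row carried nearly the same counts, for example 5978 against 6035 in bexarotene replicate 4. In that row every bexarotene library lay below every vehicle library, with a log2 fold change of -0.17 ± 0.07 and an adjusted p of 0.562. Whether the Bace1 groups overlap thus depended on the row, while the estimate did not. Rnf214, which overlaps Bace1 on the opposite strand, had a log2 fold change of -0.05 ± 0.10.

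Bace2, a relative of BACE1 that cuts the amyloid precursor protein within the amyloid beta sequence, was the least abundant member per kb, though not in CPM, where Psenen was lower. It had 2.46, 2.59, 2.45 and 2.40 CPM in bexarotene replicates 1 to 4. The vehicle libraries had 2.87, 1.15, 2.60 and 3.65 CPM. The vehicle libraries thus lay on both sides of the bexarotene libraries. Their coefficient of variation was 40.6%, far above the 8.51% that counting gives at their mean count. Under bexarotene it was 3.31%, below the 7.59% given by counting. Fitted at -0.05 ± 0.31 (SE; adjusted p = 0.985), its log2 fold change had a sign that changed with the processing and an unadjusted interval of 0.599-fold to 1.55-fold. Bace1 exceeded Bace2 per kb by 39.9 ± 1.67 times under bexarotene and 50.7 ± 25.3 times under vehicle (SD, n = 4), the second value being raised by a ratio of 87.8 in vehicle replicate 2.

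**Figure D2:**
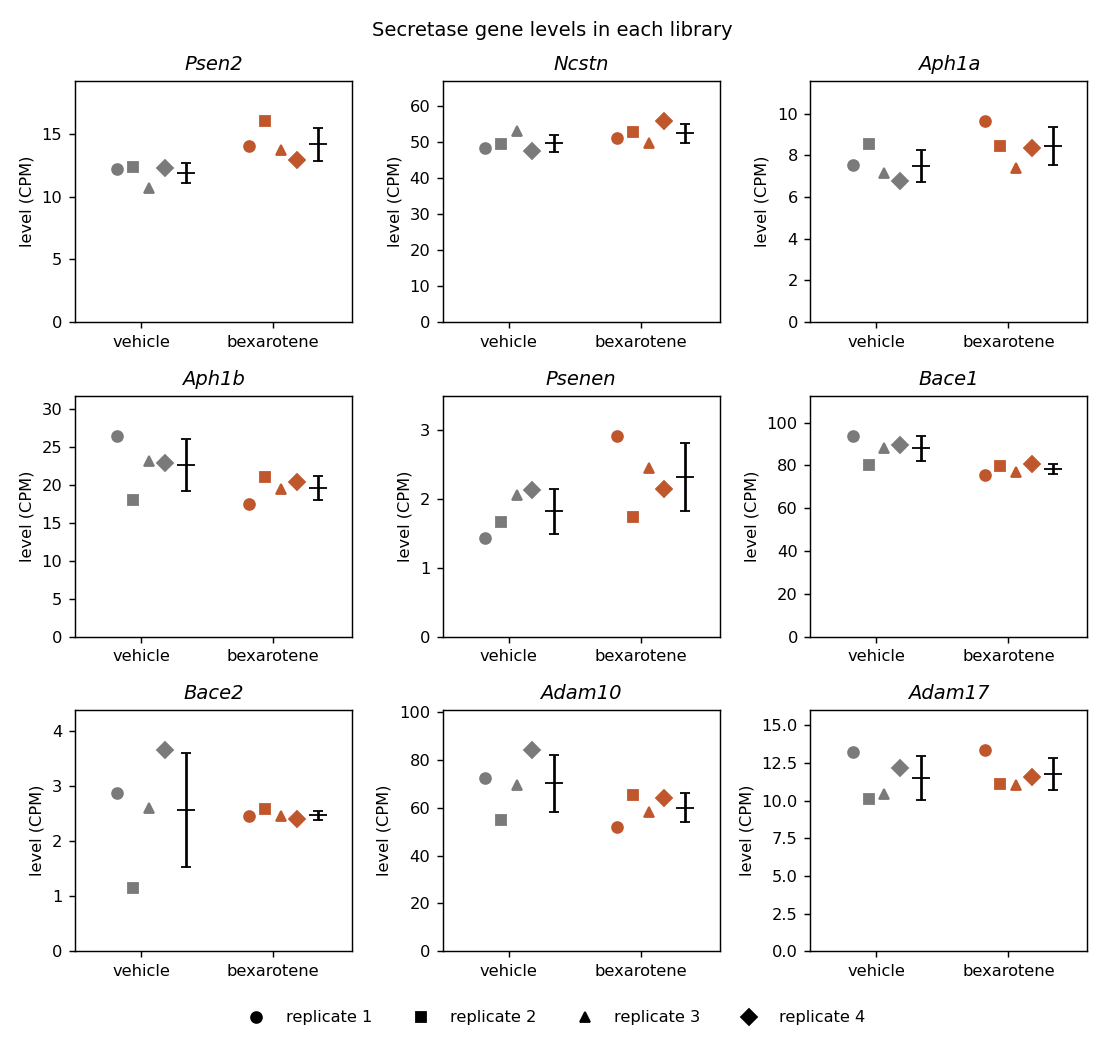
Level in CPM of each of the 9 genes in every library, by group, with a marker shape per replicate number; the bars beside the points are the mean ± SD of 4 libraries. The groups are apart for Psen2 alone, and the 4 Bace2 values under bexarotene lie between 2.40 and 2.59 CPM inside a vehicle range of 1.15 to 3.65 CPM.

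Adam10 encodes the main constitutive alpha secretase of neurons, and retinoids have been reported to act on its transcription. In bexarotene replicates 1 to 4 it was at 52.2, 65.5, 58.4 and 64.1 CPM. Vehicle replicates 1 to 4 had 72.3, 55.1, 69.6 and 84.0 CPM. The mean was lower under bexarotene, and vehicle replicate 2 was the one vehicle library within the bexarotene range. The fit gave -0.23 ± 0.13 (log2, SE; adjusted p = 0.671), and the unadjusted interval of the ratio was 0.702 to 1.04. Replicates 1 and 3 alone gave -0.36 and replicates 2 and 4 alone -0.07.

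Adam17 encodes the sheddase also known as TACE, which releases tumour necrosis factor. Its levels were 13.3, 11.1, 11.1 and 11.6 CPM in bexarotene replicates 1 to 4, and 13.3, 10.1, 10.4 and 12.2 CPM in vehicle replicates 1 to 4. Replicate 1 was the highest library in both groups. Its log2 fold change was 0.03 ± 0.12 (SE; adjusted p = 0.971), with an interval of 0.847-fold to 1.24-fold. Iah1, which overlaps Adam17 on the opposite strand, had a log2 fold change of 0.33 ± 0.13, and its part in the Adam17 counts was not tested. Adam10 per Adam17, per kb, stood at 4.99 ± 0.837 under bexarotene and 5.91 ± 0.755 under vehicle (SD, n = 4; exact permutation p = 0.20, adjusted 0.60). The ratio of Adam10 to Bace1, the enzymes that make the competing first cuts, was 1.01 ± 0.0749 under bexarotene and 1.05 ± 0.139 under vehicle per kb (SD, n = 4; exact permutation p = 0.714 before and after adjustment).

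**Figure D3:**
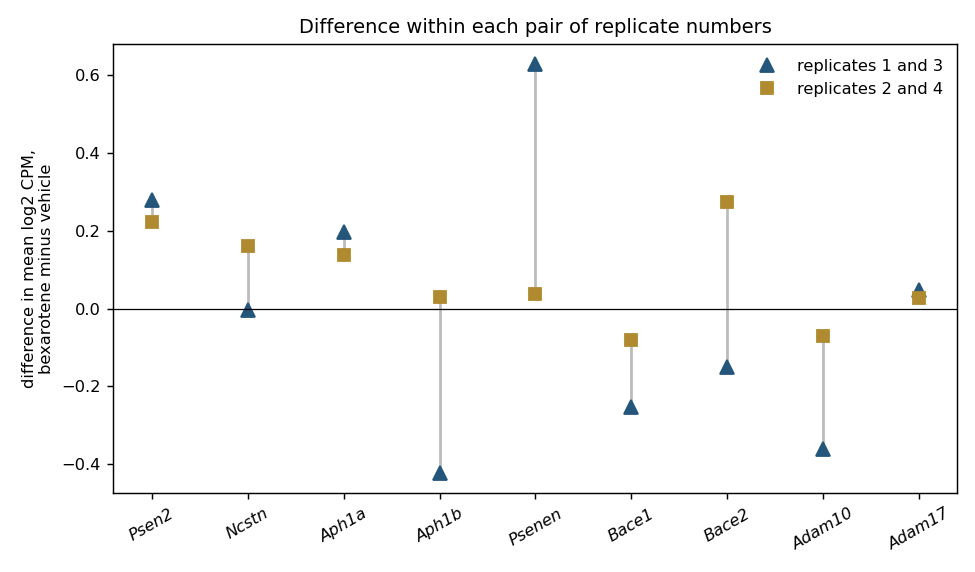
Difference in mean log2 CPM between bexarotene and vehicle for each gene, within replicates 1 and 3 (triangles) and within replicates 2 and 4 (squares), with 2 libraries per group behind each mean. Psen2 is at 0.28 and 0.22, whereas Psenen is at 0.63 and 0.04 and Aph1b at -0.42 and 0.03.

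The sign of the members' estimates went with transcript length. The 4 genes with transcripts under 3000 nt (Psenen at 708 nt, Psen2 at 1997, Aph1a at 2863 and Ncstn at 2901) all had positive log2 fold changes, and 4 of the 5 with transcripts over 4000 nt had negative ones, Adam17 being the exception. Length classes were described over the 11453 genes with a known length and a mean log2 CPM above 2, a level that Psenen and Bace2 did not reach. The median log2 fold change of these genes stood at 0.20 for transcripts of 700 to 1000 nt, 0.09 for 1000 to 2000 nt, 0.02 for 2000 to 3000 nt, -0.07 for 4000 to 6000 nt and -0.13 above 6000 nt. Over the same genes the Spearman correlation of log2 fold change with length was -0.466, a correlation across genes, which are not independent replicates. Relative levels correlated with length at -0.416 and -0.430 in bexarotene replicates 1 and 3, and at 0.026 to 0.312 in the other 6 libraries.

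With an offset for the length and GC trend of each library, 8 of the 9 estimates moved toward 0 or changed sign, and the intervals of all 9 included 0. That of Psen2 became 0.16 ± 0.11 and that of Bace1 -0.10 ± 0.06. Psenen moved from 0.34 to 0.11, Adam10 from -0.23 to -0.10 and Aph1b from -0.21 to -0.09. Aph1a (0.13) and Ncstn (0.05) moved less. Adam17 moved to 0.11, and Bace2 changed sign to 0.10.

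**Figure D4:**
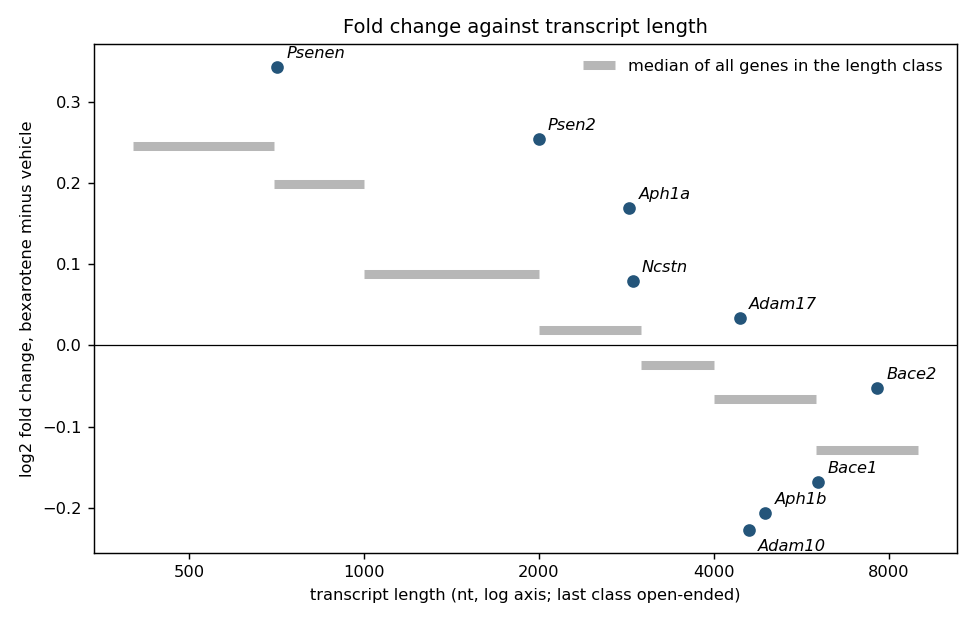
Log2 fold change (bexarotene minus vehicle) of the 9 genes against transcript length in nt (log axis), with grey bars for the median of each length class over 11453 genes with a mean log2 CPM above 2. The members run from Psenen at 708 nt and 0.34 down to Adam10 at 4593 nt and -0.23, but the longer Aph1b (-0.21), Bace1 (-0.17) and Bace2 (-0.05) do not go on downward as the medians do.

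**Figure D5:**
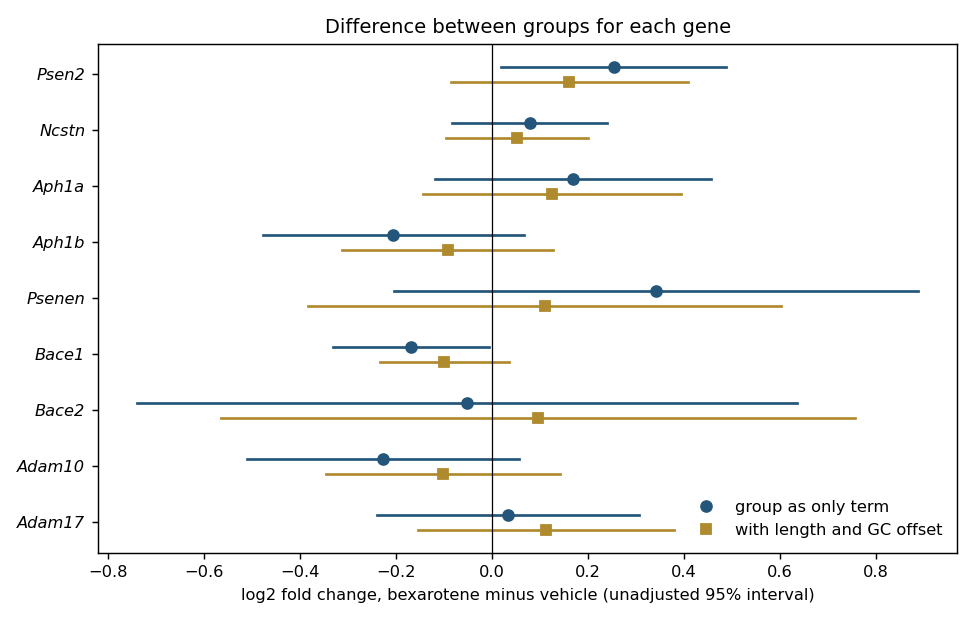
Log2 fold change of each gene with its unadjusted 95% interval, with the group as the only term (circles) and with the length and GC offset (squares). Intervals for Psen2 and Bace1 exclude 0 in the first fit and include it in the second, and those of Psenen and Bace2 are the widest.

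The intervals set what these libraries could show. For 7 of the 9 genes the unadjusted 95% interval lay wholly within 1.5-fold in either direction, and for all 9 within 2-fold. Psenen and Bace2, which have the lowest counts, were the 2 that reached past 1.5-fold.

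Lists of genes that act with the secretases were described in the same fit. Of 14 genes for gamma secretase partners and trafficking factors, 10 had a positive and 4 a negative log2 fold change (median 0.04). None passed the threshold, and 3 of 14 had an unadjusted p under 0.05 (8.77% of all genes), namely Ifitm3, Bsg and Hif1a. Hif1a, a transcription factor of the hypoxia response, was outside the naming rule and stood at -0.21 ± 0.09. Ifitm3, an interferon-induced membrane protein that binds the complex, had means of 14.6 ± 6.38 CPM with bexarotene and 7.22 ± 1.49 CPM with vehicle (SD, n = 4), and a fitted log2 difference of 1.01 ± 0.31 (adjusted p = 0.458). Bexarotene replicates 1 and 3 had 21.6 and 18.3 CPM, and replicates 2 and 4 had 8.14 and 10.4 CPM, beside a vehicle range of 5.13 to 8.58 CPM. Bsg, which encodes basigin (CD147), was at 293 to 395 CPM under bexarotene and 266 to 284 CPM under vehicle. It was the 1 of 14 higher without overlap, beside 3.61% of all genes, at a log2 fold change of 0.30 ± 0.10 (adjusted p = 0.475).

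Genes that sort or modify BACE1 had small estimates: of 17, 10 had a positive and 7 a negative estimate, between -0.16 and 0.13, with a median of 0.02. Flot1, a scaffold of lipid rafts, was at 0.13 ± 0.07, and Rtn4, a reticulon, at -0.16 ± 0.09. Of 14 tested regulators of ADAM10 and ADAM17, such as the tetraspanin Tspan5 (-0.15 ± 0.16) and the iRhom partner Frmd8 (0.16 ± 0.12), 7 had a positive and 7 a negative estimate, with a median of 0.0031. A list of related membrane proteases also held genes that encode no active protease, such as the scaffold gene Aph1c. Of its 13 tested genes, 3 had a positive estimate, and the median was -0.08. Adam19 was at -0.28 ± 0.15 and Adam8 at 0.53 ± 0.29. In these 3 lists 0 genes passed the threshold and 0 had an unadjusted p under 0.05.

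The lists of secretase substrates and of Notch targets likewise held 0 genes past the threshold. Of 16 tested alpha secretase substrates, 6 had a positive and 10 a negative estimate (median -0.10, but 0.0157 once the offset for length and GC was applied), with the growth factor Tgfa at 0.33 ± 0.18 and the protocadherin Pcdh9 at -0.25 ± 0.15. Of 15 tested beta secretase substrates, 6 were positive and 9 negative (median -0.03). An unadjusted p under 0.05 (edgeR quasi-likelihood) was found for 1 of 15, beside 8.77% of all genes. That gene, Selplg, a selectin ligand of leukocytes and microglia, had a log2 fold change of 0.39 ± 0.16, and the Notch ligand Jag1 0.54 ± 0.25. Sez6l, outside the naming rule, was the 1 of 15 lower without overlap (2.16% of all genes), at -0.20 ± 0.09. Within the amyloid precursor family, Aplp1 was at 0.08 ± 0.08 and Aplp2 at -0.07 ± 0.07. Of 9 genes listed as Notch targets, 5 were positive and 4 negative (median 0.09). Whether each of them responds to Notch in this tissue was not tested. Named by the rule of smallest unadjusted p, Id3 was at 0.27 ± 0.19 and Hes6 at 0.22 ± 0.16. Beside them, Hes1 was at 0.09 ± 0.21, Hes5 at 0.42 ± 0.34 and Hey1 at -0.0024 ± 0.08. The Notch target median became 0.01 with the length and GC offset and -0.008 without bexarotene replicate 1. In an edgeR fit of replicates 2 and 4 alone it was -0.196.

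Because bexarotene acts through receptors that bind AGGTCA half-sites, the promoters of the members were searched for that motif on both strands, its reverse complement being TGACCT. RefSeq promoter windows (GRCm38.p6, the 250 bases before the start) were found for 7 members, not for Bace1 and Bace2. The motif occurred in 2 of their 9 windows, those of Ncstn and Psenen, and in 14.0% of all 32851 windows. Both matches lie on the strand of the gene, which is the minus strand, and are shown in capitals with their surroundings. The stretch of Ncstn is chr1:172082839-172082934, and its match begins 140 bases before the start. That of Psenen is chr7:30563679-30563774, with the match 102 bases before one of its 2 listed starts.
Ncstn: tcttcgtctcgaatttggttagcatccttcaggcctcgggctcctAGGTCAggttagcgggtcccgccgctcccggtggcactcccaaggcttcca
Psenen: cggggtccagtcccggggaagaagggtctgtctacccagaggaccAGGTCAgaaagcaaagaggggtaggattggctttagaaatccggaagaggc
A match is a description of these letters and no evidence of binding, and neither gene passed the test above.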

How the data were processed

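Stranded mRNA libraries were made from RNA extracted with a column kit, per the labels' protocols. What the authors deposited is a table of raw counts, 28644 rows, each a RefSeq transcript. The submitters' processing notes name the build mm9 and edgeR; the aligner, the counter and its strand setting are not given.

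All 8 libraries entered a quasi-likelihood F test in edgeR 4.0.16 (R 4.3.3) whose single term was the group, after TMM scaling and filterByExpr, with robust dispersions. P-values were adjusted by Benjamini-Hochberg across 21285 tested rows, and an adjusted p below 0.05 was called. CPM are relative to the TMM-scaled library size, summed over all tested rows, and log2 CPM used a prior count of 2. Standard errors come from the F statistic and intervals are at 95%. The fit was also run on simulated counts, with larger differences than those of the members and no replicate sets or length trend. That run therefore does not cover these features of the libraries. Alternatives used limma 3.58.1 and DESeq2 1.42.0. Transcript lengths came from GENCODE M21 (GRCm38) and covered 97.6% of tested rows; 5 list symbols were matched through synonyms.

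Named genes were the 9 members, Aph1c, the 2 smallest unadjusted p-values per list where no member of it passed, and the 3 genes with the pattern nearest to the member of smallest p, among those averaging at least 1 CPM. Members and lists were chosen with earlier results of these data known. Car14, Rnf214 and U2af1l4 were added for their overlap with members, as were Copa and Iah1.

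The titles number replicates 1 to 4 in both groups. After subtracting group means, libraries with the same number correlated at 0.427, 0.278, 0.144 and 0.163. But 2 bexarotene libraries correlated more with another number, replicate 3 with vehicle replicate 1 (0.439) and replicate 4 with vehicle replicate 2 (0.232). Both of these matches lie within a set of replicates, so the check cannot tell pairs from the 2 sets. The main fit did not use the numbers. They entered as pairs only in the alternatives with a replicate block.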

Additional observations from a re-analysis of the deposited data

Results flagged for a closer look

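Of 20 gene and group combinations checked, 1 had a library apart from the other 3, about what chance gives, since chance flags about 1 in 20 groups. Psen2 in vehicle replicate 3 was at 10.7 CPM, below the 12.3 to 12.4 CPM of the other vehicle libraries. Leaving this library out, Psen2 differed by 0.21 on the log2 scale (edgeR, adjusted p = 0.694).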

How the results depend on the processing

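The count of secretase genes past the threshold was 0 under each of 22 alternatives, 2 of which (replicates 1 and 3 alone, replicates 2 and 4 alone) were chosen after seeing the data. The count of all genes past the threshold was 104 with DESeq2, 37 with edgeR's exact test, 3 with a term for the replicate sets, 710 in replicates 1 and 3 alone, 0 in replicates 2 and 4 alone, and 1 to 2 when 1 library was left out, 2 being without bexarotene replicate 2. With the replicate block, the fit that treats the numbers as pairs, it was 1 and no call changed, but Bace2 turned to 0.0456. Bace2 was also positive with voom (0.0781), the length and GC offset (0.10), that offset with the block (0.18), replicates 2 and 4 alone (0.0572), and without a vehicle library, in a range of -0.29 to 0.18 over single omissions (0.0029 without replicate 1 and 0.18 without replicate 4). Adam17 ran from -0.0312 to 0.11 over single omissions, being negative without bexarotene replicate 1 (-0.0312) and vehicle replicates 2 (-0.02) and 3 (-0.01). Values for replicates alone are here from edgeR fits, whereas those given for each gene above are differences in mean log2 CPM. As such differences, Bace2 was at 0.27 and Aph1b at 0.03 in replicates 2 and 4. In the fits, Ncstn was -0.0036 in replicates 1 and 3 alone, and Aph1b 0.0206 in replicates 2 and 4 alone. The cause of these changes was not tested. Psen2, Aph1a, Psenen, Bace1 and Adam10 kept their direction under all 22; over single omissions Psen2 ran from 0.19 to 0.30, Bace1 from -0.20 to -0.14, Psenen from 0.21 (without bexarotene replicate 1) to 0.46, Aph1a from 0.10 (without bexarotene replicate 1) to 0.24, Adam10 from -0.32 to -0.12 (without vehicle replicate 4) and Aph1b from -0.30 to -0.12 (without vehicle replicate 1). Among list medians under the alternatives, 10 moved by more than their SD between libraries and 166 by less.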
